A study of Homo sapiens with 6 samples.

Results

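The retinoblastoma pocket proteins, the MuvB core and the transcription factors that share that core were followed as transcripts in H1299, a line from a human lung carcinoma of the non-small cell type that keeps the retinoblastoma protein and makes no p53 protein. The members are the 10 genes RB1, RBL1, RBL2, LIN9, LIN37, LIN52, LIN54, RBBP4, MYBL2 and FOXM1, taken by gene symbol from the 22375 genes with a transcript cluster of their own. All 10 were found, in 11 of the 22685 transcript clusters that carry exactly 1 symbol, since LIN54 has 2. A transcript cluster is the set of array probes read as 1 value. The study set 3 arrays of cells kept for 14 days with 500 nM PD 0332991 in DMSO against 3 arrays of cells kept as long with DMSO alone. PD 0332991, or palbociclib, inhibits the kinases CDK4 and CDK6. Both groups are the same unmodified parental line, grown in RPMI medium with serum. The series title frames the drug as a way to reactivate the retinoblastoma protein, and the comparison here asks which members of its pathway differ in RNA level. No label states that the 3 arrays of a treatment are independent cultures, and the p-values therefore rest on a spread that may be technical.

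The pocket proteins pRB, p107 and p130, encoded by RB1, RBL1 and RBL2, bind E2F transcription factors and repress their target genes. Cyclin-dependent kinases phosphorylate the pocket proteins and release the E2Fs, and p130 is known as the prevailing family member in resting cells, p107 in cycling cells. MuvB is a core of LIN9, LIN37, LIN52, LIN54 and RBBP4 proteins that binds promoters through LIN54. With p130 or p107, E2F4 and a DP partner it forms the repressive DREAM complex, and with B-MYB (MYBL2) and later FOXM1 it forms activators of genes that act in G2 and mitosis. These complexes are regulated in part at the protein level, and neither protein levels nor binding were measured here.

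PD 0332991 arrays differed from DMSO arrays in the transcripts of 6 of the 10 genes. FOXM1, MYBL2, RBL1, LIN9 and LIN52 fell and RBL2 rose. RB1, RBBP4, LIN37 and LIN54 did not pass the test. A cluster was called at a Benjamini-Hochberg adjusted p under 0.05 by limma, a linear model fitted over all 22685 clusters. The 6 called clusters of 11 stand beside 37.8% called over all clusters, with 18.3% lower and 19.5% higher. Of the 10 member clusters whose mean lay above every array median 6 were called, beside 57.2% of all clusters at such levels, with 27.9% lower and 29.3% higher, so the count of called members lies near the background. The median log2 change was -0.12 over the member clusters and 0.00 over all clusters.

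**Figure D1:**
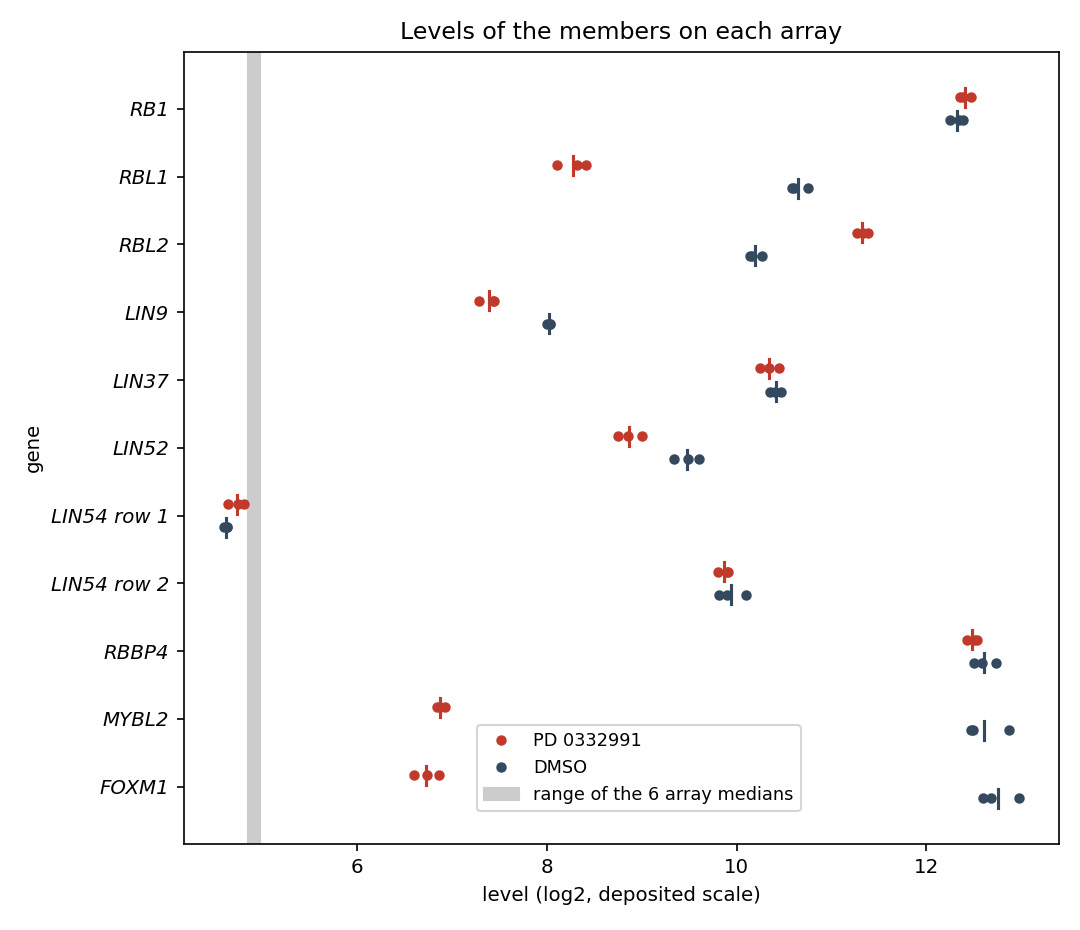
Levels of the 10 genes on each array, on the deposited log2 scale, with PD 0332991 arrays above DMSO arrays in each row, a point per array, a bar at the mean of 3 arrays and a grey band over the range of the 6 array medians. FOXM1 and MYBL2 lie far apart between the groups, RBL1 and RBL2 are displaced in opposite directions, and RB1 overlaps. LIN54 row 1 is its dimmer and row 2 its brighter cluster. Levels of different genes are not comparable with each other.

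As a background check of the line, 7 epithelial and mesenchymal marker genes were measured in 8 clusters. KRT8 and KRT18, keratins of simple epithelia, and VIM, the filament gene of mesenchymal cells, had means between 10.10 and 15.67 in either group. EPCAM was near the array medians, at 5.10 on PD 0332991 arrays and 5.02 on DMSO arrays. KRT19, at 4.54 and 4.62, and CDH1, at 4.56 and 4.51, were dimmer than every array median, whichever the treatment. Of the 8 clusters, 3 were called higher and 1 lower, beside 19.5% of all clusters higher and 18.3% lower. The 1 lower was VIM, which fell by 0.57. Among the 3 higher were both annotated to KRT8, which rose by 0.79 and by 0.76 and has near-identical pseudogene copies. The third was CDH2, for the mesenchymal cadherin, chosen after its values were seen, at 10.36 on PD 0332991 arrays and 10.10 on DMSO arrays, a change of 0.26 (limma adjusted p = 0.0427). Its call ended under 10 of 17 alternatives, among them leaving out any 1 array except DMSO replicate 1 (adjusted p = 0.0510 without that array and PD 0332991 replicate 2 together). Of 10 clusters of 9 blood, endothelial and fibroblast marker genes, 9 were dimmer than every array median, with either treatment. The summed level of the 10 was 41.8 to 43.7 on PD 0332991 arrays and 41.5 to 43.7 on DMSO arrays. PECAM1, an endothelial adhesion gene at 3.93 on PD 0332991 arrays and 3.53 on DMSO arrays, was the 1 called among them (limma adjusted p = 0.0460), and its call ended under 7 of 16 alternatives, among them leaving out PD 0332991 replicate 1, PD 0332991 replicate 3, DMSO replicate 1 or DMSO replicate 2. Array medians ran from 4.85 to 4.98. The first principal component separated the treatments and took 88.9% of the variance. PD 0332991 replicate 2 and DMSO replicate 1 shared one side of the second, which took 4.96%, and values without both arrays are given where a call ended without them.

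The DNA before the start of 4 of the 6 called genes is shown for its match to letters that E2F factors are known to bind, since E2F sites are a link by which pocket proteins reach promoters. Each stretch is the 130 bases before the RefSeq start of the gene in GRCh38.p14, printed 5′ to 3′ on the strand of the gene. RBL1 is at chr20:37095998-37096127 on the minus strand. MYBL2 is at chr20:43666984-43667113, LIN52 at chr14:74084826-74084955, RBL2 at chr16:53434341-53434470 and RBBP4 at chr1:32651078-32651207, all on the plus strand. RBBP4 was not called and is shown for contrast. LIN9 is not shown because its window is not placed at the annotated start of the gene, so its positions below count from the window's own start. Capitals mark the E2F words TTCCCGC or TTCGCGC or TTGCCGC or TTGGCGC, the E2F core GGCGGGA, the cell cycle homology words TTTGAA and TTCGAA, which are the letters LIN54 is known to read, and the forkhead word TAAACA, each on either strand.
RBL1: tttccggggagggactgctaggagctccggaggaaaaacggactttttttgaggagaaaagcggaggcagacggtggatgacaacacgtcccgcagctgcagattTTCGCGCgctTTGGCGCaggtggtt
MYBL2: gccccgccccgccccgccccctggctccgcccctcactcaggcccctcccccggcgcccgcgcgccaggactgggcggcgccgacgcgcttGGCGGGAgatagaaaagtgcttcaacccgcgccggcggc
LIN52: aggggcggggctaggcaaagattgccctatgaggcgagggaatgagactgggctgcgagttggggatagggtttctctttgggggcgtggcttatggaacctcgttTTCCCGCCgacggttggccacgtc
RBL2: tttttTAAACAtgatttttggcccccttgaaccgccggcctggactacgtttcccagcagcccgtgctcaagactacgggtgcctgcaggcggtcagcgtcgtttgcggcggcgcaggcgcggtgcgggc
RBBP4: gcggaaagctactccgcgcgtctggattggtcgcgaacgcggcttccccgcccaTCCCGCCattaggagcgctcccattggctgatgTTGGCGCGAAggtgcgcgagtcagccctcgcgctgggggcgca

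The windows searched ran from 250 bases before to 50 after the start and were used for 8 of the 10 genes. A member window was used if its own start lay within 5000 bases of the annotated gene start. The LIN9 window was used by this rule though it is not placed at that start. The limit was not applied to the promoters counted for comparison, and these were not matched for GC content. RB1 and FOXM1 were not analysed for sequence here. An E2F word was found in the windows of RBL1, LIN9, LIN52 and RBBP4, thus in 4 of 8, and in 13.1% of 27305 promoters of the same length. In RBL1, TTCGCGC lay 25 to 19 bases before the start and TTGGCGC lay 15 to 9 bases before it. In LIN52 and LIN9, TTCCCGC lay 24 to 18 and 7 to 1 bases before the start. The core GGCGGGA, added after the MYBL2 sequence had been read, lay 39 to 33 bases before the MYBL2 start, and was found in 5 of the 8 windows and in 15.5% of all. In LIN52 the core overlaps the word TTCCCGC on the opposite strand. These matches describe letters and do not show that a factor binds. RBBP4, which was not called, held 2 overlapping E2F words, while RBL2, which rose, held no E2F word and no core.

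Cell cycle homology words were found in the RBL2 window, at 25 to 30 bases after the start, and in the LIN54 window, so in 2 of 8, beside 16.6% of all promoters. The forkhead word was found in 1 of the 8 windows, at 2 places of RBL2, and in 12.4% of all promoters. CCAAT was found in 3 of the 8, beside 35.7% of all, and the MYB word AACNG in 6 of the 8, beside 77.1% of all.

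FOXM1, a forkhead transcription factor of genes for G2 and mitosis, had a log2 level of 6.60, 6.73 and 6.86 on the PD 0332991 arrays, against 12.98, 12.68 and 12.60 on the DMSO arrays. The groups were far apart, and DMSO replicate 1 was the highest array. FOXM1 fell by 6.02 ± 0.12 on the log2 scale (SE, n = 3 per group, limma adjusted p = 2.69e-08). The change was the 7th lowest of the 22685. Bulk RNA cannot tell apart a lower level in each cell and a smaller share of cells that express the gene, here and for the genes that follow. MKI67, the proliferation marker, moved with it, at 6.79, 6.73 and 6.75 on PD 0332991 arrays and 14.44, 14.06 and 14.01 on DMSO arrays, and the part of a changed share of cycling cells in these results was not tested.

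MYBL2, which encodes the MYB family factor that joins MuvB in S phase, had 6.87, 6.92 and 6.84 on the PD 0332991 arrays, against 12.87, 12.49 and 12.47 on the DMSO arrays. All PD 0332991 arrays lay below all DMSO arrays, and MYBL2 fell by 5.74 ± 0.11 (SE, n = 3 per group, limma adjusted p = 2.91e-08). The change was the 12th lowest of all clusters. The lower levels of FOXM1 and MYBL2 were still above every array median, and no detection calls were used, so both changes are differences on the deposited scale and not measured ratios of RNA.

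The falls of MYBL2 and FOXM1 were close in size. The level of MYBL2 less that of FOXM1, taken within each array, was higher by 0.29 in PD 0332991 arrays than in DMSO arrays. Measured from the DMSO mean it ran from 0.12 to 0.41 on the PD 0332991 arrays and from -0.05 to 0.04 on the DMSO arrays, without overlap. The exact two-sided permutation test gave p = 0.1, adjusted p = 0.1 over 7 pairs of members, which is the smallest value that 3 arrays against 3 allow.

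Paralogs of the members had 5 clusters of 4 genes, of which 4 fell, 0 rose and 1 did not pass, with a median of -0.32. This stands beside 18.3% of all clusters lower, or 27.9% of those above every array median. The 4 were 1 MYBL1 cluster, MYB, TESMIN and RBBP7, and the calls of TESMIN and RBBP7 ended under several alternatives. MYBL1, which encodes A-MYB, had 1 cluster that fell by 1.64 ± 0.10 (SE, limma adjusted p = 4.70e-06, n = 3 per group), with means of 10.89 on PD 0332991 arrays and 12.53 on DMSO arrays. A second MYBL1 cluster near the array medians had a change of -0.21 (adjusted p = 0.291). MYB had means of 4.73 and 5.55 on PD 0332991 and DMSO arrays, near the array medians, and fell by 0.83. The paralog of LIN54, TESMIN, fell by 0.32 (adjusted p = 0.0361), a call that ended under 8 of 17 alternatives, among them leaving out PD 0332991 replicate 1, 2 or 3 or DMSO replicate 1. Without DMSO replicate 1 the TESMIN change was -0.21, and without PD 0332991 replicate 2 as well its adjusted p was 0.0862.

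The genes whose course over the 6 arrays came closest to MYBL2 and FOXM1 act in mitosis. Likeness was the root mean square difference between profiles centred on their own mean, over 22685 clusters. MYBL2 was nearest to CDK1, the mitotic kinase, at a difference of 0.07 log2, then to DLGAP5, a spindle protein gene, at 0.14 and to NDC80, of the outer kinetochore, at 0.16. FOXM1 was nearest to DLGAP5 at 0.08, CDK1 at 0.15 and NDC80 at 0.16. With 2 groups of arrays, such nearness mostly reflects a like size of change.

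Among the pocket protein genes, RBL1 fell, RBL2 rose and RB1 showed no called change. RBL1, for p107, had 8.32, 8.41 and 8.11 on the PD 0332991 arrays, against 10.76, 10.60 and 10.58 on the DMSO arrays, and fell by 2.37 ± 0.10 (SE, n = 3 per group, limma adjusted p = 7.36e-07). RBL2, for p130, had 11.33, 11.38 and 11.27 on the PD 0332991 arrays, against 10.14, 10.27 and 10.16 on the DMSO arrays. It rose by 1.14 ± 0.07 (SE, n = 3 per group, limma adjusted p = 6.79e-06). In both genes the groups did not overlap, which holds for 7 of the 11 member clusters and 47.3% of all clusters.

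RB1, for pRB, had 12.39, 12.47 and 12.36 on the PD 0332991 arrays, against 12.34, 12.38 and 12.25 on the DMSO arrays. The groups overlapped, and the change was 0.08 with a 95% interval from -0.08 to 0.25 (limma adjusted p = 0.459). The interval leaves room for changes of up to that size, so RB1 RNA is not shown to be equal in the groups.

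**Figure D2:**
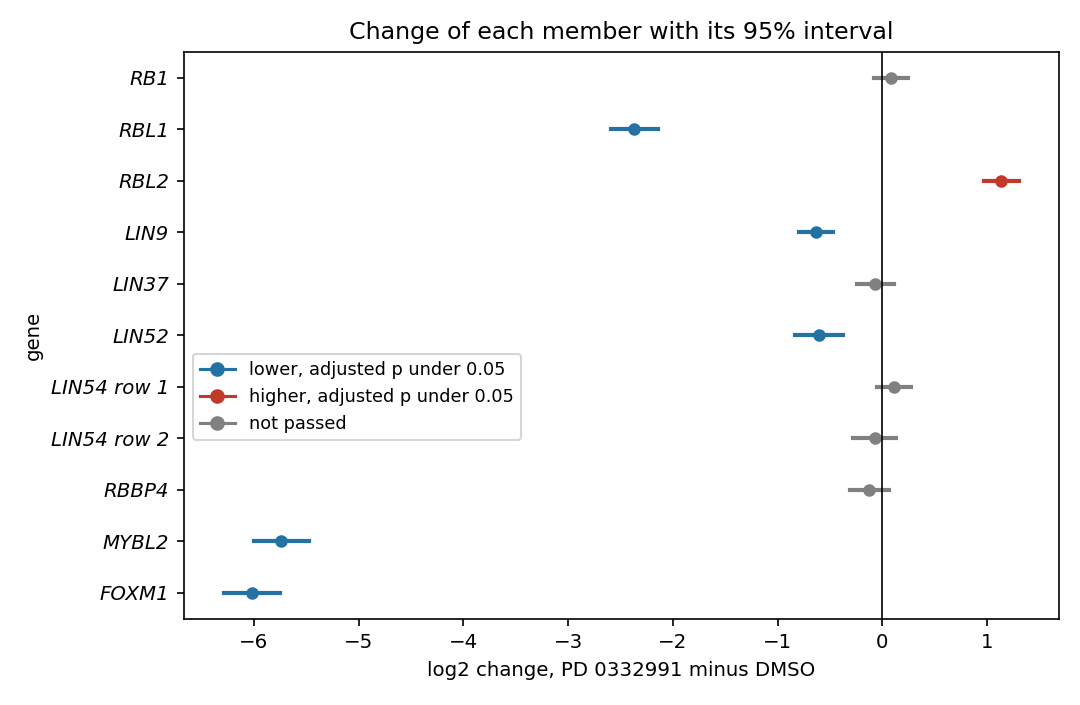
Log2 change of each member cluster, PD 0332991 minus DMSO, as a point with its 95% interval from limma, coloured by whether it was called lower, called higher or did not pass. FOXM1 and MYBL2 lie near -6, RBL1 at -2.37, LIN9 and LIN52 near -0.6 and RBL2 at 1.14, and the intervals of the other 5 clusters include 0.

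The opposite courses of RBL1 and RBL2 were set against each other within arrays. The level of RBL1 less that of RBL2 differed by -3.50 between PD 0332991 and DMSO arrays. From its DMSO mean it lay between -3.61 and -3.43 on the PD 0332991 arrays and between -0.12 and 0.16 on the DMSO arrays. For RBL1 less RB1 the difference was -2.45, and for RBL2 less RB1 it was 1.05. No array of a group fell within the range of the other group for any of these pairs. Since RBL1 fell and RBL2 rose without overlap, their own pair had to separate. These pairs add no support to the single-gene calls. Each exact two-sided permutation p was 0.1, as was each adjusted p over the 7 pairs, the smallest value possible, so the threshold of 0.05 could not be reached in this design. Levels of different clusters are not comparable, so the differences show unequal change and not which pocket protein RNA was the more abundant.

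**Figure D3:**
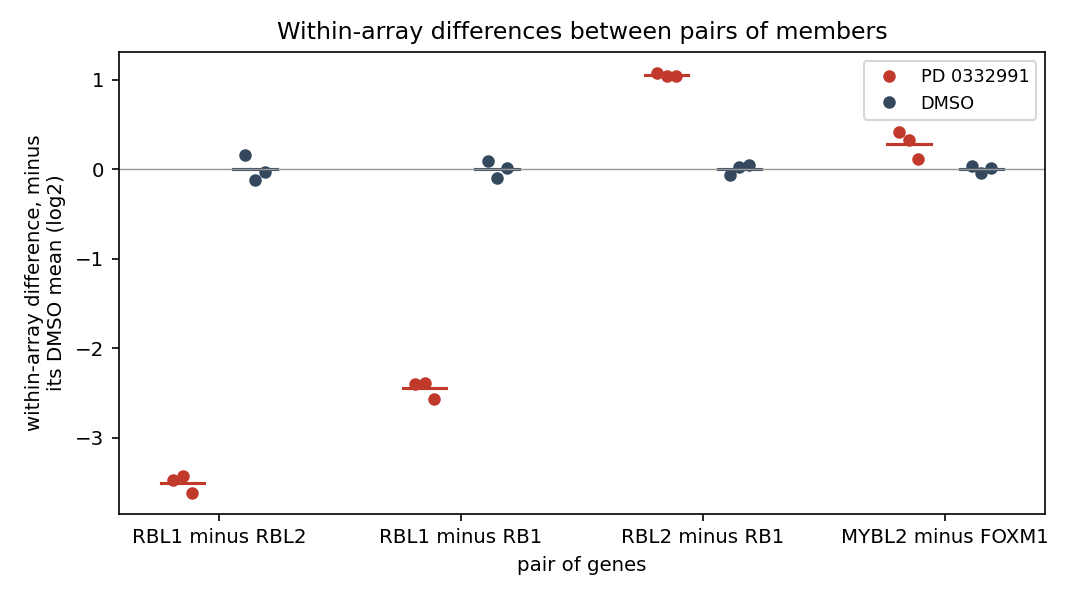
Difference between the log2 levels of 2 genes within an array, less the mean of that difference on the DMSO arrays, for 4 pairs, with a point per array, a bar at the mean and PD 0332991 left of DMSO. RBL1 minus RBL2 lies between -3.61 and -3.43 on PD 0332991 arrays, and RBL2 minus RB1 between 1.04 and 1.07.

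The nearest profiles of RBL1 and RBL2 are given as a description. With 2 groups of arrays nearness mostly reflects a like change, so genes changed in opposite directions could not share them. RBL1 was nearest to CHAC2, at a root mean square difference of 0.03 log2, to GPSM2, a spindle orientation gene, at 0.06 and to WDHD1, a replisome gene, at 0.06. These had changes of -2.33, -2.28 and -2.45. RBL2 was nearest to SPART at 0.03, to the endosome GTPase gene RAB11A at 0.03 and to FAM66E at 0.04, with changes of 1.14, 1.12 and 1.12.

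The MuvB core genes changed little or did not pass. LIN9, a scaffold subunit, had 7.44, 7.43 and 7.29 on the PD 0332991 arrays, against 8.03, 8.03 and 8.0 on the DMSO arrays, and fell by 0.63 ± 0.07 (SE, n = 3 per group, limma adjusted p = 0.000167). LIN52, the small subunit that binds the pocket of p107 and p130 once it is phosphorylated, had 8.85, 9.00 and 8.75 on the PD 0332991 arrays. On the DMSO arrays it had 9.60, 9.48 and 9.33, and it fell by 0.60 ± 0.10 (SE, n = 3 per group, limma adjusted p = 0.00136). In both genes every PD 0332991 array lay below every DMSO array.

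LIN37, a subunit needed for repression by DREAM, had 10.25, 10.44 and 10.34 on the PD 0332991 arrays, against 10.35, 10.47 and 10.41 on the DMSO arrays. Its groups overlapped, with a change of -0.07 and a 95% interval from -0.24 to 0.11 (limma adjusted p = 0.603), and the sign turned to 0.03 after quantile normalization.

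LIN54, the DNA-binding subunit, has a brighter cluster with 9.90, 9.89 and 9.80 on the PD 0332991 arrays, against 10.10, 9.90 and 9.81 on the DMSO arrays. The groups overlapped and the change was -0.07, from -0.28 to 0.14 (limma adjusted p = 0.629), and its sign turned without DMSO replicate 1, to 0.01. A dimmer LIN54 cluster, below every array median in both groups, had 4.63, 4.75 and 4.80 on the PD 0332991 arrays, against 4.63, 4.62 and 4.59 on the DMSO arrays. The groups did not overlap, by a margin smaller than the rounding, but the change of 0.11 did not pass (limma adjusted p = 0.284), and the cluster was not shown to be above background.

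RBBP4, a histone-binding subunit of MuvB and of several other chromatin complexes, had 12.53, 12.50 and 12.42 on the PD 0332991 arrays, against 12.73, 12.59 and 12.50 on the DMSO arrays. The groups overlapped by a narrow margin, with a change of -0.12 and a 95% interval from -0.31 to 0.07 (limma adjusted p = 0.316).

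On these arrays the activator genes fell further than LIN9 of the core. Relative to LIN9 within the same array, MYBL2 differed by -5.10 and FOXM1 by -5.39 between PD 0332991 and DMSO arrays, and no array of a group lay within the range of the other. RBL1 less MYBL2 differed by 3.37. Each of these 3 pairs had an exact two-sided permutation p of 0.1, the smallest possible. They describe sizes of change and add no support to the single-gene calls.

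Of the partners of the pocket proteins, 10 E2F and DP genes were measured. Of these 7 fell, 0 rose and 3 did not pass, beside 18.3% of all clusters lower, or 27.9% of those above every array median. Their median was -1.16. E2F7 and E2F8, repressors that act without a pocket protein, fell by 4.84 and fell by 2.75, and TFDP1, the gene of the main DP partner, fell by 1.51. E2F4 and E2F5 encode the E2Fs that bind p107 and p130. They were chosen after their values were seen and fell by 0.95 and fell by 0.68, with E2F4 at 10.56, 10.57 and 10.57 on PD 0332991 arrays against 11.63, 11.44 and 11.46 on DMSO arrays. Among the genes of the DREAM complex, RBL2 was the 1 that rose, while RBL1, E2F4, E2F5, TFDP1, LIN9 and LIN52 fell and TFDP2, LIN37, LIN54 and RBBP4 did not pass.

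All 13 kinase and cyclin genes that act on the pocket proteins, LIN52, MYBL2 or FOXM1 were called, 7 lower and 6 higher, with a median of -0.25, beside 37.8% of all clusters called, or 57.2% of those above every array median. CCNA2, PLK1 and CDK1, whose products act in S phase and mitosis and phosphorylate B-MYB or FOXM1, fell by 6.76, fell by 6.32 and fell by 5.75. CDK4, a target of the drug, fell by 0.40 (limma adjusted p = 0.00288). CCND1, for cyclin D1, rose by 0.66 (limma adjusted p = 0.00253). CDK6, the other target, had a change of 0.42 (limma adjusted p = 0.0436), and its call ended under 8 of 17 alternatives, among them leaving out any 1 array except DMSO replicate 1. Without DMSO replicate 3 the CDK6 change was 0.27. CCNE1, for cyclin E1, chosen after its values were seen, had a change of -0.25 (limma adjusted p = 0.0243), and its call ended under 9 of 17 alternatives, among them the replicate number as a block and leaving out any 1 array except DMSO replicate 2. Without PD 0332991 replicate 2 and DMSO replicate 1 together the CCNE1 change was -0.23 (adjusted p = 0.102).

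DYRK1A encodes the kinase that phosphorylates LIN52 and so promotes the assembly of DREAM. It had 10.31, 10.56 and 10.49 on the PD 0332991 arrays, against 10.13, 10.13 and 9.99 on the DMSO arrays, and rose by 0.37 ± 0.09 (SE, n = 3 per group, limma adjusted p = 0.0102). Without PD 0332991 replicate 2 and DMSO replicate 1 together its adjusted p was 0.0511. DYRK1B, for a related kinase of resting cells, was chosen after its values were seen. It had 9.28, 9.58 and 9.29 on the PD 0332991 arrays, against 7.49, 7.57 and 7.57 on the DMSO arrays, and rose by 1.84 ± 0.09 (adjusted p = 2.30e-06). CCND3, for cyclin D3, also chosen after its values were seen, rose by 1.72.

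Of 6 listed genes for regulators of the B-MYB and FOXM1 proteins 5 were measured. Of these 4 fell, 0 rose and 1, OTUB1, was not called, beside 18.3% of all clusters lower, or 27.9% of those above every array median. Their median was -0.89. CCNF, for cyclin F, which restrains B-MYB, fell by 3.04, MELK, a kinase of FOXM1, fell by 3.02 and FZR1, an activator of the ligase that degrades FOXM1 after mitosis, fell by 0.89.

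**Figure D4:**
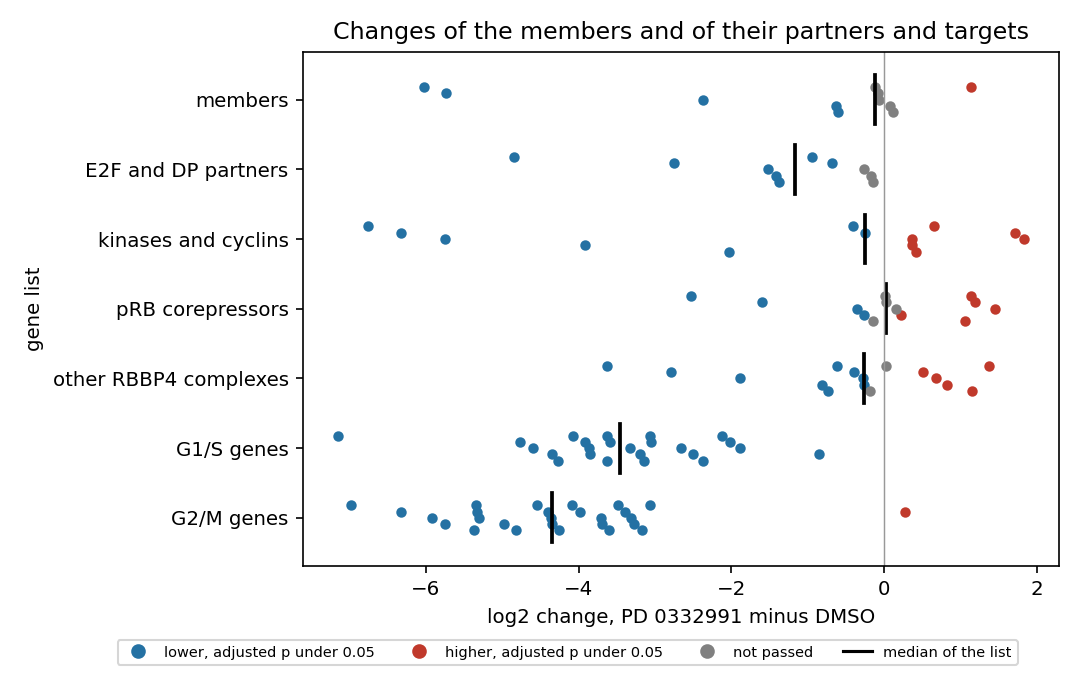
Log2 changes, PD 0332991 minus DMSO, of the clusters of the 10 members and of 6 lists of partners, chromatin cofactors and target genes, a point per cluster, blue where called lower, red where called higher and grey where not passed, and a black bar at the median of each list. The medians are -3.46 for G1/S genes and -4.34 for G2/M genes, and the cofactor lists spread to both sides of 0.

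Among the genes listed here as known to be bound by DREAM, B-MYB with MuvB, or FOXM1, those measured fell with few exceptions. All 24 measured of 25 listed G1/S genes fell, with a median of -3.46. Of all clusters 18.3% were called lower, or 27.9% of those above every array median. The falls ran from TYMS at -7.16, MCM10 at -4.77 and RRM2 at -4.60 to SLBP at -0.85. SLBP, for the binding protein of histone mRNA, had the smallest fall on the list. TYMS and RRM2 make DNA precursors and MCM10 acts at replication origins. Of 27 measured of 28 listed G2/M genes, 26 fell and 1 rose, with a median of -4.34, beside the same shares of all clusters lower. CCNE2 of the G1/S list and PLK1 and CDK1 of the G2/M list are also on the kinase and cyclin list. The mitotic kinesin gene KIF20A fell by 6.98, PLK1 fell by 6.32 and DLGAP5 fell by 5.92. The gene that rose, named for its direction after the values were seen, was CDC25B, a phosphatase that activates CDK1, at 0.27 ± 0.07 (SE, n = 3 per group, limma adjusted p = 0.0140). That call ended with arrays centred on their medians (adjusted p = 0.0832), when all transcript clusters were tested (adjusted p = 0.0682) and under a required change of 1. FOXM1 and MYBL2 belong to the same kind of targets, and the lists were chosen with earlier results of these data known.

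In the promoters of the target lists the same words were counted as a description. Unlike the member windows, these were not limited by distance from the annotated gene start. The genes were listed as bound by these factors, so a frequent match follows in part from their choice. All promoters, counted for comparison, were not matched for GC content. E2F words were found in 16 of 21 G1/S promoters and 8 of 23 G2/M promoters, beside 13.1% of all promoters. Cell cycle homology words were found in 1 of 21 G1/S promoters and 15 of 23 G2/M promoters, beside 16.6% of all.

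Of 15 listed chromatin cofactors of pRB 13 were measured, with a median of 0.03. Of these 4 fell, 5 rose and 4 were not called, shares near the 27.9% lower and 29.3% higher among all clusters above every array median. DNMT1, the maintenance DNA methyltransferase, fell by 2.53 and SUV39H1, a histone H3 lysine methyltransferase, fell by 1.59. ARID4B, of the SIN3 corepressor, rose by 1.45. KDM5A and SMARCA2, set out after their values were seen, rose by 1.19 and by 1.14. KMT5B, set out in the same way, rose by 0.22 (limma adjusted p = 0.0392). That call ended under 11 of 17 alternatives, among them leaving out any 1 array. Without PD 0332991 replicate 2 and DMSO replicate 1 together the KMT5B adjusted p was 0.109. HDAC1, a histone deacetylase recruited by pocket proteins and chosen after its values were seen, rose by 1.07, with means of 12.09 on PD 0332991 arrays and 11.02 on DMSO arrays. The other listed deacetylase genes, given for comparison, did not rise. HDAC2 fell by 0.26 (limma adjusted p = 0.0166), a call that ended under 6 of 17 alternatives, among them the replicate number as a block and leaving out PD 0332991 replicate 1, PD 0332991 replicate 3 or DMSO replicate 1. HDAC3 stood at -0.15 (limma adjusted p = 0.145). Weighting the arrays gave it an adjusted p of 0.0325.

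RBBP4 is shared with other complexes, of which 16 genes were measured, with a median of -0.27. Of these 9 fell, 5 rose and 2 were not called, beside 27.9% lower and 29.3% higher among all clusters above every array median. CHAF1B and CHAF1A, of the chromatin assembly factor that works at replication forks, fell by 3.63 and fell by 1.89, and both are also on the G1/S list. EZH2, the Polycomb methyltransferase, fell by 2.79. The genes of its partners EED and SUZ12, chosen after their values were seen, fell by 0.73 and fell by 0.39. BPTF, of a nucleosome remodelling factor and chosen in the same way, rose by 1.37. Of the listed genes of the NuRD deacetylase complex, which were also set out after their values were seen, GATAD2B rose by 1.15, CHD4 rose by 0.83, MTA3 rose by 0.69 and CHD3 rose by 0.51. MTA2 fell by 0.81, GATAD2A fell by 0.62 and MBD3 fell by 0.27, while MBD2 at -0.18 and MTA1 at 0.03 were not called. The MBD3 call (limma adjusted p = 0.0377) ended under 9 of 17 alternatives, among them the replicate number as a block and leaving out any 1 array except PD 0332991 replicate 2. RBBP7, the close paralog of RBBP4 and chosen after its values were seen, fell by 0.26 (limma adjusted p = 0.0188), a call lost under 7 of 17 alternatives, among them quantile normalization, the replicate number as a block, and leaving out PD 0332991 replicate 1, PD 0332991 replicate 3 or DMSO replicate 2.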

How the data were processed

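Total RNA was measured on 6 arrays of H1299 cells, 3 with PD 0332991 and 3 with DMSO. The authors deposited 1 table of log2 values for 65535 transcript clusters, made with Affymetrix Expression Console, per the submitters' processing notes. Its version is not given in the sources used here. Nor are the background correction or the normalization. That the logarithm has base 2 was inferred from the range of the values, and the labels name 2 labelling chemistries. The highest value, 19.89 on DMSO replicate 1, exceeds 16, the log2 range of a 16-bit scanner. How the values came to exceed it is not known. No detection calls, scan dates or array positions were used here, and precision is limited by having 3 arrays a group, with a median SE of 0.0878 for a log2 change. The table's row number equals an old spreadsheet limit, so it may lack clusters. Gene names came from the platform annotation, with 22685 clusters of 1 symbol, 1385 of several and 41465 of none. The 10 members matched symbols of RefSeq genes in GRCh38.p14.

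The values were compared without further scaling in R 4.3.3 with limma 3.58.1 (lmFit and eBayes, 4 residual degrees of freedom, Benjamini-Hochberg over the 22685 clusters, two-sided). Replicate number as a block was an alternative. Exact permutation tests covered 7 pairs of members. Gene lists are described by counts and medians without a test. The members and the 10 lists were chosen with earlier results of these data known. By rule, the genes named besides the members were CDK4, CDK6, CCND1, DYRK1A, MKI67, up to 3 called genes of largest change per list, and the 3 nearest profiles of members changed by at least 1. Other genes, among them RBBP7, SLBP, CDC25B, CDH2 and those so marked in the results, were named after their values were seen. Promoter letters were searched on both strands. The fit was tested on simulated data in which 200 of 22685 clusters were changed, far fewer than the 8580 called here. It recovered 42% of true log2 changes of 0.5, 92% of 1, 96% of 2 and 100% of 4. Of its 167 calls 2 were false.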

Additional observations from a re-analysis of the deposited data

How the results depend on the processing

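The 17 alternatives were 3 scalings, leaving out dim clusters, 1 cluster per gene, all clusters, trended and robust moderation, array weights, the replicate block, a minimum change of 1, leaving out each array, and leaving out PD 0332991 replicate 2 with DMSO replicate 1. Under a required minimum log2 change of 1, 1235 clusters, 3 falling members and 0 rising members were called, and RBL2 at 1.14 (adjusted p = 0.626), LIN9 at -0.63 and LIN52 at -0.60 (both adjusted p = 1) lost their calls. The other alternatives kept all 6 member calls. With any 1 array left out 7530 to 8109 clusters, 5 falling members and 1 rising member were called, and the changes ran from -6.10 to -5.91 for FOXM1, from -5.81 to -5.61 for MYBL2, from -2.43 to -2.28 for RBL1 and from 1.11 to 1.18 for RBL2. They ran from -0.66 to -0.58 for LIN9 and from -0.67 to -0.54 for LIN52. Of members without a call, LIN37 turned to 0.0279 after quantile normalization (adjusted p = 0.814) and the brighter LIN54 cluster ran from -0.13 to 0.00961, turning without DMSO replicate 1. With the replicate block 7747 clusters were called, against 8580 without it, no member changed its call, and the adjusted p was 3.19e-06 for FOXM1, 0.000124 for RBL2 and 0.00273 for LIN52. The labels do not say that same-numbered arrays are pairs, so the numbers are not taken as such. Deviations from the group means of same-numbered arrays had correlations of -0.33, -0.15 and 0.09. These cannot settle the pairing, since deviations from a mean of 3 arrays depend on each other. Array weights and testing all clusters called 10345 and 12192. The dimmer LIN54 cluster has no value without dim clusters or with 1 cluster per gene. Scaling moved the median change of all clusters by at most 0.02. In the within-array differences quantile and cyclic loess normalization changed no direction, and centring arrays cannot change them.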
